A study of Mus musculus with 2 samples.

Results

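Lymphatic endothelial cells of the mouse aorta were taken as the cell barcodes that held RNA of both lymphatic and general endothelial genes. A barcode was a member when it had at least 1 UMI (unique molecular identifier, which marks 1 captured RNA molecule) in 2 or more of Prox1, Mmrn1, Reln and Flt4, and at least 1 UMI in 2 or more of Egfl7, Ecscr, Cdh5, Cldn5, Tie1 and Pecam1. They were thus selected on their own counts of these 10 genes. Barcodes with fewer than 300 genes or more than 10% mitochondrial UMIs were left out. The rule found 80 of 39503 barcodes in the library labelled WT and 93 of 28960 in the library labelled EC-iCD45KO, 173 of 68463 in all.

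Both libraries are 10x Genomics single-cell RNA-seq of aortas from ApoE-/- mice on the C57BL/6 background that were fed a Western diet, a model of atherosclerosis, since mice without apolipoprotein E accumulate cholesterol-rich lipoproteins. The label of the WT mice names no CD45 deletion. In the EC-iCD45KO mice CD45, the receptor tyrosine phosphatase encoded by Ptprc, was deleted in endothelial cells after tamoxifen, and the study asked what this deletion does to endothelial-to-mesenchymal transition. The aortic tissue was broken up with enzymes and passed over CD31 microbeads, so every population here passed an enrichment on an endothelial surface protein. The promoter driving the recombinase, the age and sex of the mice, the number of pooled aortas and whether the WT mice received tamoxifen are not given in the sources used here. Each group is 1 library, so no difference between the groups has a replicate check, no test between them was possible, and genotype and library cannot be told apart. Intervals are at 95% and cover counting error only. In what follows, pairs of values give the WT library first and the EC-iCD45KO library second.

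Lymphatic endothelium lines the vessels that return interstitial fluid, lipoproteins and immune cells from tissues to the blood. Prox1 is the transcription factor that sets and keeps lymphatic identity, and Flt4 (VEGFR3) is the receptor for the lymphatic growth factor VEGF-C. Blind-ended capillaries carry Lyve1 and the chemokine Ccl21, which draws dendritic cells and T cells that bear CCR7, while collecting vessels have little Lyve1 and hold valves whose cells use Foxc2, connexins and a specialised matrix. In arteries, lymphatic vessels run mainly in the adventitia, the outer coat of the wall.

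The lymphatic barcodes were among the deeper ones of each library. Their median depth was 3131 and 3180 UMIs per barcode, against 1903 and 2003 in the 3857 and 3835 blood endothelial barcodes (2 or more of the same endothelial genes and none of the 4 lymphatic genes) and 1508 and 1332 in the 35315 and 24745 other barcodes with fewer than 2 endothelial genes. The rule needs UMIs in at least 4 genes, against 2 for blood endothelial barcodes, and so favours deep barcodes. Endothelial barcodes with exactly 1 lymphatic gene had medians of 2857 and 3405 UMIs. Summed over members, the libraries gave 323477 and 498974 UMIs, and the deepest EC-iCD45KO member alone held 30120 of them (6.04%). The median mitochondrial share was 1.41% and 2.03%. The libraries shared 340 barcode sequences, and no sequence was lymphatic in both. Levels are given in CPM, counts per 1000000, which here is a gene's summed UMIs divided by all UMIs of the same population and scaled to that total. Genes differ in length and capture, so levels are compared between populations and not between genes.

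The 4 genes that chose the members are given as a description, since the rule fixed their presence. Prox1 had a UMI in 58 of 80 WT and 67 of 93 EC-iCD45KO members (72.5% and 72.0%), at 417 and 553 CPM. After thinning every barcode to 1000 UMIs the share was 28.2% and 39.3%. RNA that floats free in droplets also gives UMIs, and 0.286% and 0.267% of the other barcodes had Prox1. Mmrn1, a multimerin of the lymphatic matrix, stood at 841 and 673 CPM in 69 and 74 barcodes. Reln, a secreted matrix glycoprotein, was at 495 and 575 CPM in 46 and 72 barcodes, and Flt4 at 241 and 293 CPM in 49 and 66 barcodes. The label was checked against lymphatic markers that the rule did not use, and these were found. Ccl21a reached 14894 and 14378 CPM in 44 and 62 members (50% and 61.8% of members after thinning). Lyve1, the hyaluronan receptor of lymphatic capillaries, was at 1060.3 and 619 CPM against 3.19 and 4.65 in blood endothelial barcodes, in 33 and 38 barcodes. Pdpn (podoplanin), a surface glycoprotein, was at 179 and 184 CPM against 18.2 and 49.4. Because RNA of these same barcodes chose them, all values set against other populations are descriptions and carry no test.

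Members differed in how many of the 4 lymphatic genes they showed. WT members had 2, 3 or 4 of them in 36, 26 and 18 barcodes, and EC-iCD45KO members in 31, 31 and 31. Ccl21a, outside the rule, stood at 1795, 19171 and 29302 CPM over these steps in WT and at 3395, 9819 and 23735 CPM in EC-iCD45KO. Just outside the rule, the 251 and 287 endothelial barcodes with exactly 1 lymphatic gene had Ccl21a at 133 and 269 CPM and a Flt1 (VEGFR1) UMI in 62.9% and 77.7% of barcodes, and that gene was Flt4 in 132 and 220 of them. These neighbours thus had little Ccl21a and often held Flt1. A further 27 and 33 barcodes had 2 or more lymphatic genes but fewer than 2 endothelial genes.

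Members made up 1.91% (80 of 4188, 1.52% to 2.37%, exact Clopper-Pearson) of WT barcodes with 2 or more endothelial genes and 2.21% (93 of 4215, 1.78% to 2.70%) of EC-iCD45KO ones. The difference of 0.296 percentage points had a Newcombe interval of -0.315 to 0.911 and was not detectable at this number of cells. It was 0.939 points (-0.643 to 2.56) without barcodes holding 3 or more markers of another class and 1.04 points (-0.060 to 2.20) without those over 1% other-class UMIs. Of all kept barcodes, members were 0.203% and 0.321%, a difference of 0.119 points (0.042 to 0.201). With thinning to 1000 UMIs before the rule, members were 1.39% (29 of 2082) and 1.65% (35 of 2125) of endothelial barcodes. The CD31 enrichment precedes both shares, so neither gives the share of lymphatic cells in the vessel wall.

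Against blood endothelial barcodes, the members held more Ccl21a, Lyve1, Sema3a and Sema3d and less Flt1, Sox17 and Rbp7, genes of blood vessels. A gene was counted as higher or lower when its CPM ratio was at least 2-fold in the same direction in both libraries with intervals that excluded no difference, and 3795 genes whose mean level reached 50 CPM were tested. By that rule 167 genes were higher (4.4% of those tested) and 104 were lower (2.74%), and 129 and 78 of them were also called in both settings that left out barcodes with markers of other cell classes. The median log2 ratio of all tested genes was 0.05 and 0.01. The 12 genes with the largest ratios were, in order, Sh3gl3, Lyve1, Sema3a, Pard6g, Slc45a3, Ccl21a, Nts, Pkhd1l1, Sema3d, Gpm6a, Tbx1 and Fxyd6. Sh3gl3, which encodes an endophilin of membrane traffic, was at 145 and 152 CPM against 0.912 and 0.369. Pard6g, a cell polarity adaptor, was at 328 and 423 CPM against 3.37 and 1.84. Nts, the neurotensin precursor, was at 769.8 and 649 CPM against 5.74 and 15.1, and Fxyd6, a regulator of the sodium pump, was at 628 and 587 CPM against 26.3 and 26.4. Slc45a3, Pkhd1l1 and Gpm6a were between 110.2 and 288 CPM in members and at most 7.38 CPM in blood endothelial barcodes. Ccl21a lies at 4:42772860-42773993, Lyve1 at 7:110850607-110863239 and Sema3a at 5:13125414-13602565 (GRCm38, GENCODE M21). In that annotation Ccl21a overlaps 4930578G10Rik and Pard6g overlaps Gm21886, and reads of overlapping genes cannot be told apart here. Of the 12, Fxyd6 in EC-iCD45KO had the smallest log2 ratio, of 4.47.

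**Figure D1:**
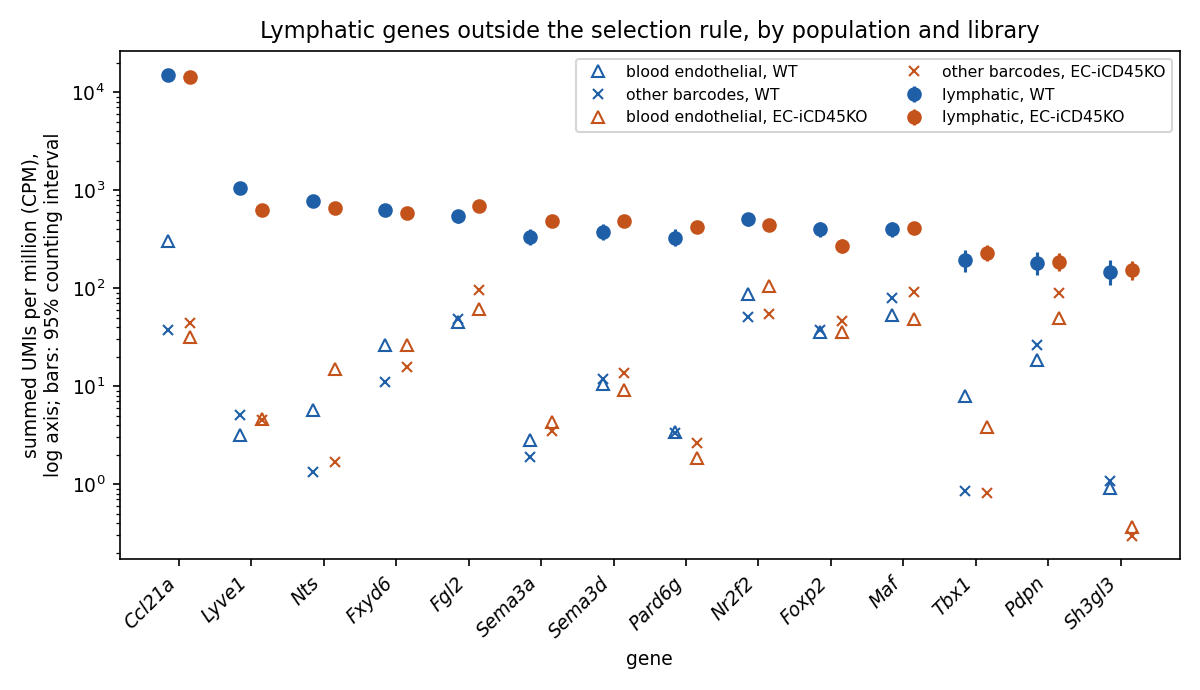
Level in CPM (log axis) of 14 genes that the selection rule did not use, by population and library. Filled circles are lymphatic barcodes with their 95% counting interval, triangles blood endothelial barcodes and crosses all other barcodes, blue for WT and orange for EC-iCD45KO. For every gene shown, both lymphatic values lie above the other populations, by the least for Pdpn.

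The secreted semaphorins Sema3a and Sema3d were higher in members. Sema3a, a guidance cue known for its part in lymphatic valves and in leukocyte entry, was at 334 and 479 CPM in 48 and 54 barcodes, against 2.83 and 4.28 CPM in blood endothelial and 1.87 and 3.45 CPM in other barcodes. Its log2 ratios over blood endothelium were 6.88 and 6.81. Sema3d, of the same class, was at 374 and 483 CPM in 46 and 61 barcodes, against 10.5 and 9.22 CPM in blood endothelial and 11.8 and 13.6 CPM in other barcodes. Nrp2, a receptor for these cues and for VEGF-C, was at 281 and 186 CPM against 99.3 and 128 CPM and was not called in both libraries. Nrp1, the related receptor used more by blood vessels, was lower in members, at 92.7 and 92.2 CPM against 259 and 306 CPM.

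Of the lymphatic identity list, 20 genes in all, 15 passed the CPM minimum. Of these 13 were higher in members in both libraries, beside 4.4% of all tested genes. The median log2 ratios of the 15 were 2.53 and 2.05. Nr2f2 (COUP-TFII), the venous factor that turns on Prox1 in the embryo, was at 504 and 439 CPM against 87.1 and 106. In the venous blood endothelial barcodes (2 or more of Ackr1, Selp, Sele, Lrg1 and Vwf, and not 2 of the capillary or the arterial list) it stood at 158 and 196 CPM, between the 2 levels. Maf, a transcription factor of lymphatic maturation, was at 396 and 409 CPM against 53.3 and 48.5. Tbx1, an activator of Flt4 in the embryo, was at 192 and 228 CPM against 7.93 and 3.84. Nfatc1, the calcium-responsive factor of lymphatic patterning, was at 164 and 152 CPM against 66.6 and 43.6. Fgl2, a fibrinogen-like secreted protein, was at 538 and 693 CPM against 45.4 and 61.0, and Thy1 at 161 and 226 CPM against 30.4 and 20.2. Cd9, Rassf9 and Slco3a1 completed the 13 together with Pdpn, Lyve1, Ccl21a and Fxyd6 above, and the ratios of Cd9 were the smallest (log2 1.07 and 1.03). The call of Rassf9 was lost in both settings that left out barcodes with RNA of other classes, at log2 ratios nearer to 0 of 0.89 and 0.97. The 2 that did not pass in both libraries were Nrp2 and Sox18, the factor that induces Prox1 in the embryo, whose log2 ratios were 0.21 and -0.04. Foxc2, the valve factor, was at 74.2 and 92.2 CPM against 12.03 and 13.1. Its mean over lymphatic and blood endothelial barcodes of both libraries was under 50 CPM, so it was not tested. Hoxd10, which stood at 21.6 and 20.0 CPM against 0.547 and 0.516, was rarer still.

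In the VEGF-C list, members held the receptors and little of the ligands. Kdr (VEGFR2) was at 306 and 279 CPM against 129 and 168 and did not pass in EC-iCD45KO. Vegfc itself had UMIs in 2 members of each library and Vegfd in 3 and 8. Apart from Flt4, which chose the cells, 4 of the 13 genes tested were higher and 1, Nrp1, was lower. Of all tested genes 4.4% were higher and 2.74% lower. Adm (adrenomedullin), a peptide that widens and stabilises lymphatic vessels, was at 216 and 325 CPM against 9.12 and 15.0, in 17 and 28 barcodes. Its receptor Calcrl was at 213 and 228 CPM against 79.4 and 103, and the receptor partner Ramp2 at 794 and 862 CPM against 470.2 and 503 did not reach 2-fold. The call of Calcrl was lost without barcodes over 1% other-class UMIs, at a log2 ratio nearer to 0 of 0.80. Itga9, an integrin of valve leaflets, and Ephb4, a receptor of vein and valve cells, were the remaining ones, at 145 and 234 CPM and at 77.3 and 94.2 CPM against 50.5 and 84.2 and 32.8 and 44.2. Peptide and receptor of the adrenomedullin system were thus found in the same population.

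Among the 16 tested genes of leukocyte traffic, 6 were higher in members and none lower, beside 4.4% and 2.74% of all tested genes. Ccl21a, described above, was at 302 and 31.4 CPM in blood endothelial barcodes, the WT value being the higher. In WT, 94 blood endothelial barcodes held strong Ccl21a (at least 3 UMIs and 1000 CPM), and 66 of those 94 (70.2%) also held Glycam1, a marker of the high endothelial venules of lymph nodes, against 7.71% of the remaining blood endothelial barcodes. In EC-iCD45KO there were 30 such barcodes and 0 of them held Glycam1. Whether lymph node tissue came with the WT aortas, and its part in the WT values of the members, was not tested. Only 1 of the 6 features named Ccl21a, Ccl21b or Ccl21c in the matrix held UMIs, so near-identical Ccl21 copies cannot be told apart here. Spns2, the exporter of sphingosine-1-phosphate that lymphocytes follow, was at 95.8 and 66.1 CPM against 26.7 and 29.7. Its call was lost without barcodes holding markers of another class, where the log2 ratio nearer to 0 was 0.54. Stab1, a scavenger and adhesion receptor, was at 297 and 297 CPM against 57.8 and 80.6. Clca3a1, a surface protein of lymphatic endothelium, was at 519 and 481 CPM against 31.9 and 28.9. Il7, the survival cytokine of T cells, did not reach the CPM minimum and was at 83.5 and 86.2 CPM against 3.19 and 2.88. Ackr2, the scavenging receptor for inflammatory chemokines, was at 18.5 and 26.1 CPM against 0.273 and 0.443. The adhesion molecules Icam1, at 139 and 90.2 CPM, and Vcam1, at 322 and 64.1 CPM, were not called against blood endothelial levels of 122 and 117 and 461 and 327 CPM.

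Genes of valves and flow were in part higher in members. Nfatc1, Itga9, Ephb4 and Ptpn14, a phosphatase that restrains VEGFR3 signalling, were higher in members, 4 of 13 tested, beside 4.4% of all tested genes. The call of Ephb4 was lost without barcodes holding markers of another class (log2 0.13, -0.95 to 1.05, in the library nearer to 0). Ptpn14 stood at 173 and 285 CPM against 52.6 and 52.2. The flow-induced factors Klf2 and Klf4 were at 1017 and 673 CPM and at 566 and 655 CPM, against 950.3 and 815 and 376 and 374 CPM, and were not called. Cldn11, a claudin of valve cells, fell short of the minimum at 58.7 and 116 CPM against 2.55 and 4.06. Celsr1, a planar polarity cadherin of valves, was at 27.8 and 44.1 CPM against 4.65 and 1.84. Foxp2, a factor of collecting vessels, was at 396 and 271 CPM against 35.7 and 35.3 and was called higher. Markers of capillaries and of collecting vessels and valves were therefore both present among the members.

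Junction and matrix genes gave 2 higher and 3 lower of 19 tested, beside 4.4% and 2.74% of all tested genes. Lama4, a laminin chain of endothelial basement membrane, was at 281 and 331 CPM against 49.4 and 90.9, and the inhibitor Timp3 at 1033 and 1048 CPM against 498 and 503. Esam, Jam2 and Ecm1 were lower, with Esam, an endothelial adhesion molecule, at 111 and 148 CPM against 269 and 324. The tight junction gene Cldn5 helped to choose the members and was at 726 and 776 CPM against 223 and 210.1. In the TGF-beta and BMP list, Smad1, a transducer of BMP signals, was the only 1 of 16 that was called. Its level was 402 and 449 CPM against 75.5 and 99.7, and 4.4% of all tested genes were called higher. Yes1, at 223 and 130.3 CPM against 61.2 and 59.2, was the only 1 of 6 tested in the list of CD45 and Src family kinases. Without barcodes holding markers of another class the calls of Yes1 and Timp3 were lost, at log2 ratios nearer to 0 of 0.57 and 0.70.

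Genes counted as lower in members included those of blood vessels and of lipid uptake. Of 17 tested blood endothelial genes, 8 were lower and Apold1 was higher, beside 2.74% and 4.4% of all tested genes. Flt1, the decoy receptor of VEGF, was at 124 and 162 CPM in 8 and 13 barcodes against 450.1 and 554 CPM in blood endothelial barcodes. Vwf, the platelet-binding factor of blood vessels, was at 49.5 and 16.03 CPM against 134 and 119.6. Sox17, the arterial factor, was at 18.5 and 28.1 CPM against 98.0 and 94.8, and Ly6c1 at 553 and 325 CPM against 1641 and 1575. Ly6a, Cd34, Rbp7 and Edn1 made up the 8. Of 4 tested venous genes Vwf was lower, while Lrg1, a secreted glycoprotein of venous endothelium, was higher, at 828 and 869.8 CPM against 350.2 and 434 CPM. The fatty acid carrier Cd36 was at 315 and 202 CPM against 719 and 708. Fabp4, the fatty acid binding protein of capillaries, was at 3518 and 1589 CPM against 7085 and 7081. These 2 were the only ones of 15 lipid genes called, both lower. The 12 smallest ratios belonged to Ibsp, Igha, Ighg2b, Saa3, Cytl1, Sfrp1, Hp, Hbb-bs, Rgcc, Mcc, Htra1 and Pdgfd. Several of these are genes of plasma cells, red cells or fibroblasts that also differed between the libraries, and Hbb-bs turned to log2 ratios of at least 0.15 in both libraries when barcodes with markers of other classes were left out. Rgcc, a cell cycle regulator of blood capillaries, was at 58.7 and 76.2 CPM against 352 and 364 (log2 -2.58 and -2.26). None of the 15 tested genes of antigen presentation and interferon, the 15 of early response or the 2 of the cell cycle was called.

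Within the members, Ccl21a divided the population sharply. It was absent from 36 WT and 31 EC-iCD45KO members, and in members above 1000 CPM it took a median of 2.70% and 2.03% of all UMIs and at most 9.48% and 10.4%. Members above 1000 CPM are called Ccl21a-high. They made up 47.5% of the WT members (38 of 80, 36.2% to 59.0%) and 59.1% of the EC-iCD45KO members (55 of 93, 48.5% to 69.2%), a difference of 11.6 percentage points (-3.19 to 25.8). The sign of that difference turned to -9.82 when 3 lymphatic genes were required and to -6.33 without barcodes holding markers of another class. The limit was set after the values were seen, and 3 and 5 members lay near it, between 500 and 2000 CPM. Because Ccl21a made the split, its own difference is no finding, and other genes are described with no test. Ccl21a-high and Ccl21a-low members had median depths of 3542.5 and 2599.5 UMIs in WT and of 3180 and 3625 in EC-iCD45KO.

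**Figure D2:**
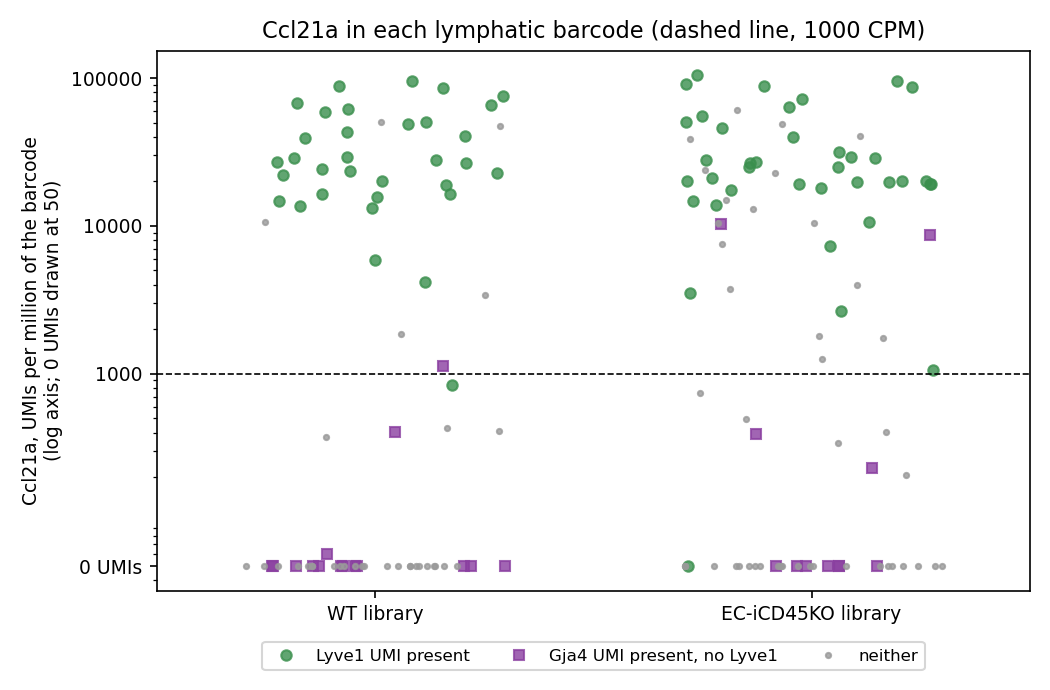
Ccl21a CPM in each lymphatic barcode (log axis, barcodes with no UMI drawn at 50), 80 in WT on the left and 93 in EC-iCD45KO on the right, spread sideways for visibility. Green circles have a Lyve1 UMI, purple squares a Gja4 UMI but no Lyve1, grey dots neither. Nearly all green circles lie above the dashed line at 1000 CPM, and most purple squares lie at 0 UMIs.

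Of 4 tested genes of the capillary list, Lyve1, Pdpn and the rule gene Reln were higher in Ccl21a-high members, beside 1.19% of all tested genes. Stab1 was not called, at 329 and 362 CPM in high and 268 and 192 CPM in low members. Lyve1 had a UMI in 32 of 38 WT and 37 of 55 EC-iCD45KO high members, against 1 of 42 and 1 of 38 low members. After thinning to 1000 UMIs the shares were 73.0% and 45.3% against 2.44% and 0%, where 0 of 36 allows a share with a UMI at that depth of up to 8.33%. Its level was 2253 and 992 CPM in high and 5.82 and 26.0 CPM in low members. Pdpn was at 329 and 268 against 46.6 and 51.9 CPM (log2 2.82 and 2.37). Htr2b, a serotonin receptor, was at 98.8 and 111 against 5.82 and 10.4 CPM, and Mrc1, the mannose receptor that lymphatic endothelium shares with macrophages, at 125 and 101 against 34.9 and 20.8 CPM. Of the rule genes, Reln was at 883 and 731 against 151 and 327 CPM and Mmrn1 at 1245 and 849 against 483 and 395 CPM. In both libraries, then, Lyve1 and Pdpn were higher where Ccl21a was.

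Some genes of valves and collecting vessels were higher in Ccl21a-low members, and others were not. Of 17 valve and flow genes tested 2, Gja4 and Nos3, were lower in high members. Of 4 collecting vessel genes Cd24a was lower and Mgp higher in high members. Of all tested genes 0.851% were lower and 1.19% higher. Gja4 (connexin 37), a gap junction protein of valve cells, was at 151 and 379 CPM in low and 6.59 and 35.9 CPM in high members (log2 of high over low -4.52 and -3.40). It had a UMI in 14 of 42 and 10 of 38 low members against 1 of 38 and 5 of 55 high ones, and after thinning in 17.1% and 19.4% of low members. Foxc2 was at 99.0 and 208 CPM in low against 46.1 and 19.6 CPM in high members. Adm was at 361 and 659 against 52.7 and 114 CPM, and Nos3, the endothelial nitric oxide synthase, at 116 and 98.6 against 19.8 and 26.1 CPM. Cdh13, an atypical cadherin, was at 501 and 550.2 against 165 and 179.5 CPM. Lypd6, a small extracellular modulator of receptors, was at 69.9 and 145 against 19.8 and 13.1 CPM and at 0.273 and 0 CPM in blood endothelial barcodes. Cd24a, on the collecting vessel list, was at 344 and 306 against 132 and 88.1 CPM, while Mgp, a matrix inhibitor of calcification on the same list, was at 4381 and 6336 CPM in high against 687 and 280.3 CPM in low members. Of its UMIs in high members, 370 of 665 in WT and 1628 of 1941 in EC-iCD45KO came from 1 barcode each. Foxp2 was at 443 and 353 against 343 and 219 CPM. Prox1, which helped to choose the members, was at 472 and 856 CPM in low and 356 and 362 CPM in high members. Without barcodes holding markers of another class few UMIs were left. Gja4 then had 1 UMI in high and 3 in low WT members, too few for a ratio, and 2 and 26 in EC-iCD45KO (log2 -3.43, -6.55 to -1.43). Without barcodes over 1% other-class UMIs its log2 ratios were -4.45 and -4.02. The Adm ratios without the first set of barcodes were -1.16 (-3.29 to 0.63) and -2.56 (-3.75 to -1.54), and those of Nos3 -2.16 (-5.40 to 0.07) and -0.14 (-1.95 to 1.57). Mgp turned to -1.43 (-2.91 to -0.14) in WT and was at 1.78 (0.84 to 2.82) in EC-iCD45KO.

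**Figure D3:**
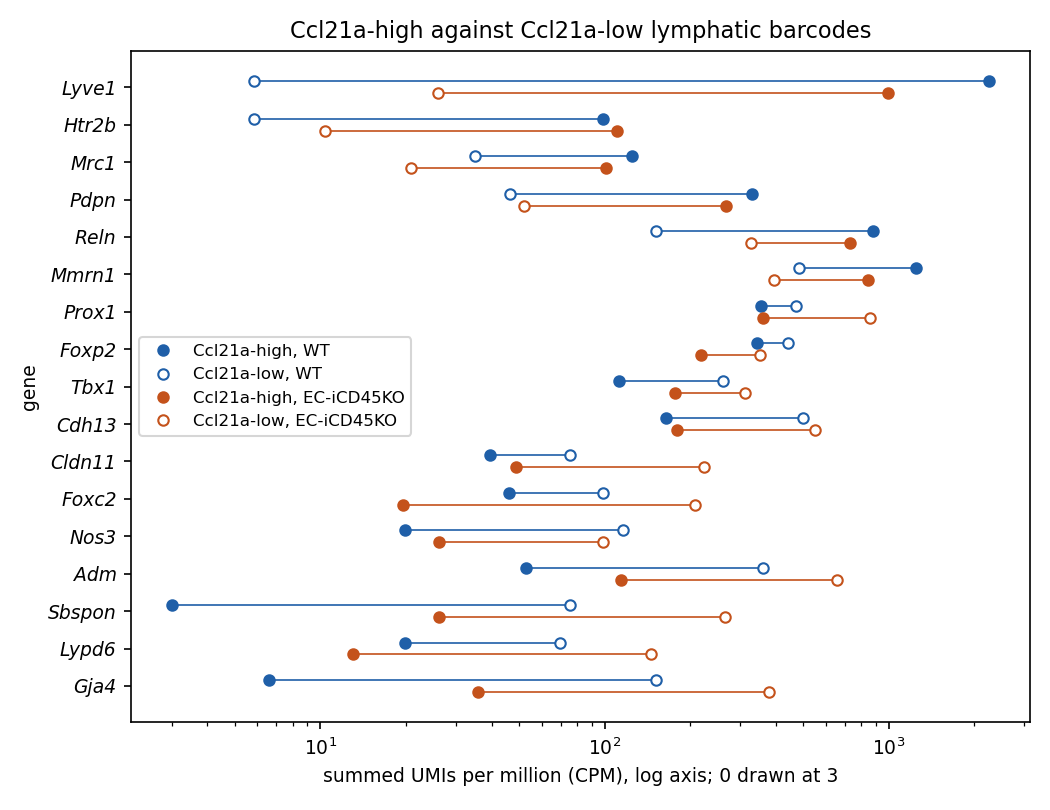
Level in CPM (log axis, 0 drawn at 3) of 17 genes in Ccl21a-high (filled) and Ccl21a-low (open) lymphatic barcodes, blue for WT and orange for EC-iCD45KO. Lyve1, Pdpn and Htr2b lie higher in the high barcodes of both libraries, and Gja4, Adm and Nos3 higher in the low barcodes of both.

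By the same 2-fold rule, 46 of 3879 tested genes (1.19%) were higher in Ccl21a-high members of both libraries and 33 (0.851%) were lower. Of these, 14 and 5 were also called in every setting that left out barcodes. The settings left out those with markers of other classes, those over 1% other-class UMIs, or the deepest EC-iCD45KO member. The rule genes Mmrn1 and Reln, which helped to choose the members, are among the 46. Per list, Pdpn and Lyve1 were higher among identity genes, Vcam1, Mrc1 and Lyve1 among traffic genes, Acta2, Tagln, Myl9 and Ccn2 among mesenchymal genes, and Tgfb2 (165 and 58.8 against 11.6 and 15.6 CPM) among TGF-beta and BMP genes. Gja4 and Nos3 were lower among valve and flow genes, Adm in the VEGF-C list, and Cd36, Fabp4 and Pparg among lipid genes. Fabp4 stood at 679 and 924 CPM in high and 6028 and 2647 CPM in low members. With thinning before the rule, which left 29 and 35 members, this ratio turned to at least log2 1.14 in both libraries. The largest ratios also included Myh11, Pi16, Prg4, Sfrp4, Ptgis, Mgp, Lum, Mt1 and Nbl1, of which Myh11, Pi16 and Lum are on the smooth muscle and fibroblast lists. Summed smooth muscle markers were at 1542 and 1792 CPM in high and 128 and 285 CPM in low members. Fibroblast markers were at 1832 and 2958 CPM against 1025 and 130 CPM, and macrophage markers at 1028 and 8227 CPM against 1613 and 2445 CPM. The deepest EC-iCD45KO member, whose Ccl21a of 1062 CPM lies just above the limit, held 194 of the 356 Dcn, 129 of the 171 Lum and 178 of the 208 Col1a2 UMIs of the high group. The part of these cells' RNA in the split was not tested. Without barcodes holding markers of another class the calls of Lyve1 and Pdpn were kept, that of Tgfb2 rested on at most 8 UMIs a group, and those of Vcam1, Mrc1, the 4 mesenchymal genes and the 3 lipid genes were not. Mrc1 had like ratios there from few UMIs (log2 1.96, -0.43 to 5.27, and 2.27, -1.06 to 7.89), while Fabp4 was at -2.46 in WT and turned to 1.83 in EC-iCD45KO. The lowest ratios also held Cystm1, St5, Nav2, Sparcl1, Sbspon, Rgcc, Sft2d2, Pcdh17, Arrdc3 and Clic5.

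A smaller set of WT members held Ackr4, the receptor that scavenges CCL19 and CCL21 and is known in lymph node ceiling and collecting lymphatics. It gave 31 UMIs in 9 WT members (95.8 CPM) and 2 UMIs in 2 EC-iCD45KO members (4.01 CPM), a log2 ratio of -4.58 (-7.69 to -2.60). Without barcodes holding markers of another class the ratio was -2.26 (-5.60 to 0.22). The gene was picked out after its values were seen, and its mean missed the 50 CPM minimum. None of the 11 barcodes had a Ccl21a UMI. Of the 9 in WT, 9 had Foxp2, 8 Prox1, 7 Stab1 and 0 Lyve1, and 11 of the 31 UMIs came from a single barcode. Of the other ceiling genes listed, Btnl9 was at 142 and 98.2 CPM, Cd36 at 315 and 202 CPM and Anxa2 at 754 and 872 CPM, and blood endothelial barcodes held all 3. Of the lists for the floor and medulla of lymph nodes, Marco, Clec4g and Ccl20 were at 0 in members of both libraries, which allows up to 9.27 and 6.01 CPM, and Stab2 was at 18.5 and 10.0 CPM and Ptx3 at 40.2 and 32.1 CPM. Ackr4 overlaps Acad11 in the annotation, and whether counting used strand is not given in the sources used here.

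Turning to the deletion, Ptprc was first read in every population. In members it was at 155 and 116 CPM, with a log2 ratio of EC-iCD45KO over WT of -0.41 (-0.98 to 0.16), in 22 of 80 and 15 of 93 members (11.5% and 5.62% after thinning). Of the 58 EC-iCD45KO UMIs, 27 came from 1 barcode. The ratio was -1.28 as a mean of single-barcode CPM, -1.72 without barcodes over 1% other-class UMIs, -1.44 in Ccl21a-low and 0.12 in Ccl21a-high members. Blood endothelial barcodes had 362 and 149 CPM (log2 -1.28, -1.36 to -1.20), and the other barcodes, which include leukocytes, had 585 and 321 CPM. In members the interval of the targeted gene's difference thus included 0, while its level was lower in EC-iCD45KO barcodes outside the endothelium too. Whether the counted reads lie in the deleted part of Ptprc, which spans 1:138062861-138175708 on GRCm38, is not given in the sources used here.

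RNA of other cell classes differed between the libraries in every population, and these values stand beside all that follows. The 9 macrophage markers summed to 1339 CPM in WT members and 5994 CPM in EC-iCD45KO members, with none at 0 in either, against 4356 and 9068 CPM in blood endothelial and 7802 and 18893 CPM in other barcodes. The 6 B cell markers summed to 723 and 40.1 CPM in members and 941 and 69.6 CPM in blood endothelial barcodes. Smooth muscle markers were at 791 and 1210 CPM and fibroblast markers at 1404 and 1866 CPM in members. T/NK markers were at 244 and 36.1 CPM. All 6 mesothelial markers were at 0. At least 3 markers of some other class were found in 42 of 80 WT and 46 of 93 EC-iCD45KO members, most often of macrophages (23 and 43), followed in WT by fibroblasts (13), B cells (11), T/NK cells (5) and smooth muscle (3) and in EC-iCD45KO by smooth muscle (15) and fibroblasts (10). The part of this RNA in each difference was not tested. Counts are also given without such barcodes.

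**Figure D4:**
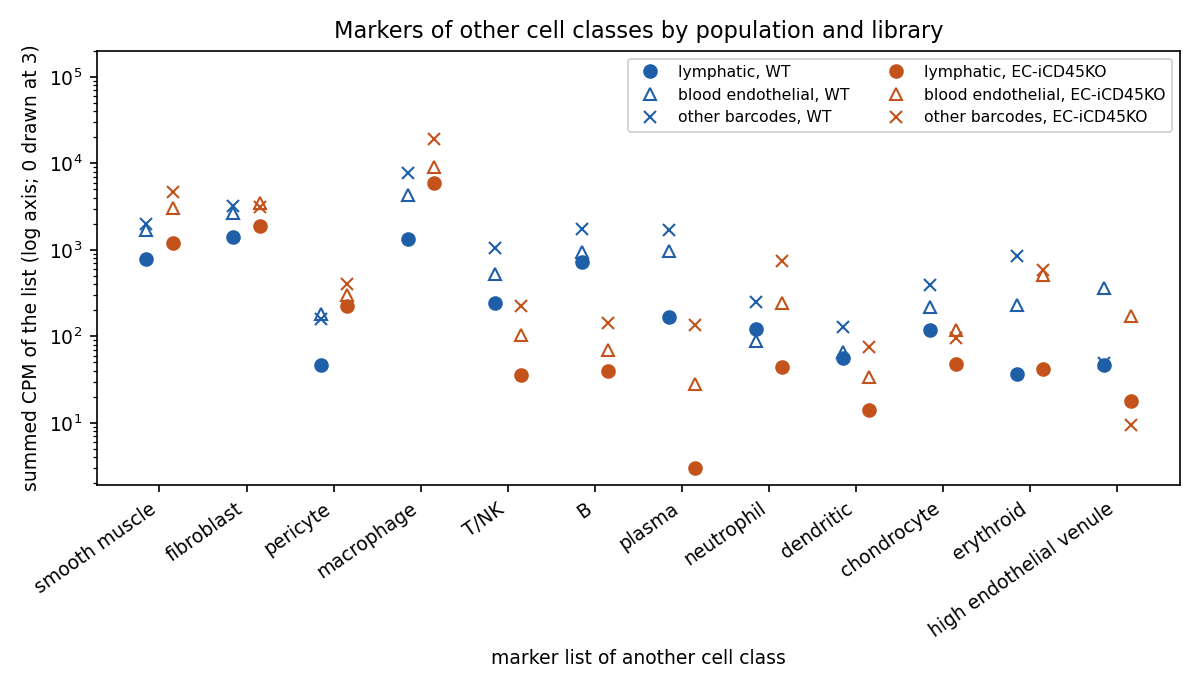
Summed CPM (log axis, 0 drawn at 3) of 12 marker lists of other cell classes in lymphatic, blood endothelial and other barcodes, by library. Macrophage markers lie higher and B, plasma and T/NK markers lower in EC-iCD45KO than in WT in all populations shown.

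Of 3855 genes that reached a mean level of 50 CPM in members, 151 were at least 2-fold higher in EC-iCD45KO with an interval above no difference (3.92%) and 112 were lower (2.91%). Without barcodes holding 3 or more markers of another class 37 and 45 of these calls were kept, and 34 and 36 were kept in every setting that left out barcodes. More than 50% of the UMIs of the higher library came from 1 barcode for 20 of the 151 and 5 of the 112. Cxcl14 was at 3.09 and 222 CPM, with 65 of its 111 EC-iCD45KO UMIs in 1 barcode. Chil1 was at 0 and 228 CPM (at least log2 4.62), all 114 UMIs in the deepest barcode, which also held 207 of 285 Col3a1 UMIs, 77 of 149 of Mmp3 and 70 of 87 of Ccl19. Clec4n, Rsad2 and Rgs5 were also among the 10 largest rises, from at most 15.5 CPM in WT to between 104 and 136 CPM. The 10 largest falls were Igkc, Ighg2c, Ly6d, Bank1, Ighm, Ltb, Jchain, Cd79a, Ms4a1 and Cd79b, most of them genes of B or plasma cells. Igkc went from 3509 to 34.1 CPM in members and from 13037 to 264 CPM in blood endothelial barcodes. Among these rises Hjurp had UMIs in 2 and 43 barcodes, Col3a1 in 8 and 17 and Fibin in 5 and 16.

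Lymphatic identity genes did not pass 2-fold between the libraries. None of 17 tested was called, and their median log2 ratio was 0.04, beside -0.03 for all tested genes. The median went from -0.17 to 0.38 over the settings tried. Ccl21a was at 14894 and 14378 CPM (log2 -0.05, -0.10 to 0.00), Nr2f2 at 504 and 439 CPM, Maf at 396 and 409 CPM and Tbx1 at 192 and 228 CPM. Lyve1 had the largest difference of the list, with a log2 ratio of -0.78 (-1.002 to -0.55), short of 2-fold. Among Ccl21a-high members alone it was at 2253 and 992 CPM, a log2 ratio of -1.18 (-1.41 to -0.96). Of the rule genes, Prox1 had a log2 ratio of 0.41 (0.10 to 0.71) and Mmrn1 of -0.32 (-0.56 to -0.08). None of 16 tested genes of the VEGF-C list, 20 of junctions and matrix, 15 of early response, 5 of CD45 and Src family kinases or 2 of the cell cycle was called either.

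Leukocyte traffic genes had a median log2 ratio of -0.11 over 17 tested, with 3 higher and 2 lower, beside 3.92% and 2.91% of all tested genes. Vcam1, the ligand of the leukocyte integrin VLA-4, was lower in EC-iCD45KO members, from 322 to 64.1 CPM (log2 -2.33, -2.95 to -1.74), and from 16 to 10 barcodes, with 63 of the 104 WT UMIs in 1 barcode. Its ratio was -2.68 without barcodes holding markers of another class and -2.84 without the deepest barcode. In blood endothelial barcodes it went from 461 to 327 CPM. Sele, the other lower gene, rested on 1 barcode in each library. Ccl2 and Ccl7, chemokines for monocytes, were higher, from 40.2 to 154 CPM and from 27.8 to 142 CPM, and were higher in blood endothelial barcodes as well, at log2 1.62 and 2.11. Without barcodes holding markers of another class 3 and 2 UMIs of them were left in WT and 3 of each in EC-iCD45KO, too few for a ratio, and both calls were kept without barcodes over 1% other-class UMIs. Ccl19, the third higher gene, had 70 of its 87 UMIs in the deepest barcode and turned to -0.10 as a mean of single-barcode CPM.

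Valve and flow genes had a median of 0.29 over 17 tested, and 2 were higher, beside 3.92% of all tested genes. Gja4 went from 83.5 to 168 CPM (log2 1.01, 0.37 to 1.70), with UMIs in 15 members of each library and 29 of the 84 EC-iCD45KO UMIs in 1 barcode. Neo1 (neogenin), a guidance receptor, went from 40.2 to 110.2 CPM (log2 1.46, 0.56 to 2.45), and 21 of its 55 EC-iCD45KO UMIs came from 1 barcode. Of this group, 4 genes picked after their values were seen are given by Ccl21a state. In Ccl21a-low members Gja4 was at 151 and 379 CPM (log2 1.32, 0.66 to 2.03), Neo1 at 46.6 and 234 CPM (log2 2.33, 1.23 to 3.62), Cldn11 at 75.7 and 223 CPM (log2 1.56, 0.64 to 2.58) and Foxc2 at 99.0 and 208 CPM (log2 1.07, 0.22 to 1.98). In Ccl21a-high members the log2 ratio was 2.45 (-0.34 to 7.87) for Gja4, from 1 and 11 UMIs, -0.01 (-1.70 to 1.89) for Neo1, 0.31 (-1.14 to 1.96) for Cldn11 and -1.24 (-3.08 to 0.56) for Foxc2. The difference between the 2 sets of members was not tested.

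Genes of the mesenchymal and EndoMT list, the question of the study, did not give a stable direction in members. Their median log2 ratio was 0.77 over 14 tested, beside 0.54 for the same list in blood endothelial barcodes and -0.03 for all genes in members. It was 0.04 without barcodes holding 3 or more markers of another class, -0.34 without barcodes over 1% other-class UMIs, -0.12 with Prox1 required and -0.78 after thinning. The 6 higher genes, beside 3.92% of all tested genes, were Tagln, Tpm2, Col1a1, Col1a2, Col3a1 and Zeb2. Tagln (transgelin), an actin-binding protein of smooth muscle, was at 281 and 571 CPM in 13 and 32 barcodes, and its ratio turned to -1.30 without barcodes holding markers of another class. The fibrillar collagens Col1a1 and Col1a2 turned to -1.44 and -0.095 without the deepest barcode, which held 86 of 102 and 178 of 216 of their UMIs. Col3a1 kept a log2 ratio of 2.58 without that barcode and of 0.64 (-1.97 to 4.04) without barcodes holding markers of another class. Tpm2 and Zeb2 were both at 0.32 (-2.48 to 3.79) there. Snai1, Snai2 and Twist1, inducers of the transition, were at 12.4 and 10.0 CPM, at 6.18 and 8.02 CPM and at 0 in both. Acta2, the smooth muscle actin, was at 411 and 457 CPM and Fn1 at 473 and 399 CPM, neither called. Vim, a filament protein that endothelium also makes, was at 2062 and 3335 CPM, short of 2-fold.

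Some lipid and TGF-beta genes were called between the libraries, beside macrophage markers that summed to 1339 and 5994 CPM, whose part was not tested. Lrp1, Abcg1, Pltp, Npc2 and Plin2 were higher, 5 of 15 lipid genes tested, beside 3.92% of all tested genes. The signs of Pltp, Npc2 and Plin2 turned, to log2 -2.38, -0.52 and -0.042, without barcodes holding markers of another class. Lrp1 had 1 and 2 UMIs left there, too few for a ratio, and Abcg1 was at 1.44 (-0.43 to 3.89). Fabp4 was the only lower one, at 3518 and 1589 CPM (log2 -1.15, -1.28 to -1.01), while blood endothelial barcodes held 7085 and 7081 CPM. Among Ccl21a-low members it was at 6028 and 2647 CPM, with 318 of 1035 and 339 of 510 UMIs in 1 barcode each. Among Ccl21a-high ones it was at 679 and 924 CPM (log2 0.45), and it turned to 1.53 when 3 lymphatic genes were required. Acvrl1, a BMP9 receptor, and Id2 were higher and Bmp6 lower among 16 genes of TGF-beta and BMP. Of all tested genes 3.92% were higher and 2.91% lower. Acvrl1 went from 37.1 to 78.2 CPM (log2 1.08, 0.11 to 2.14). Without barcodes holding markers of another class Acvrl1 was at 0.68 (-0.64 to 2.19) and Id2 at 0.49 (-0.78 to 1.90), while Bmp6 was at -3.49 (-8.98 to -0.53). Plvap, the protein of endothelial fenestrae, was the 1 lower of 10 blood endothelial genes, from 578 to 287 CPM (log2 -1.01, -1.34 to -0.69), with a blood endothelial ratio of 0.05, and its ratio was -0.86 (-1.30 to -0.42) without those barcodes.

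Some differences were seen in many members and were called also when barcodes with RNA of other classes were left out. Such genes were picked after their values were seen, by UMIs in at least 20 members of the higher library and a call in all 3 settings, and there were 29 higher and 22 lower. The 3 largest falls of the 22 were the B cell genes Igkc, Bank1 and Ighm (log2 -6.69, -5.27 and -4.61), which were lower in blood endothelial barcodes too (-5.63, -3.31 and -4.30). Procr, the endothelial protein C receptor, was at 359 and 40.1 CPM in 34 and 17 barcodes (log2 -3.16, -3.92 to -2.47). Its ratio was -2.60 without barcodes holding markers of another class and -3.07 without the deepest barcode. In blood endothelial barcodes Procr was at 90.1 and 48.1 CPM (log2 -0.90), and in the venous ones at 231 and 88.7 CPM. Ocel1, Smap2, Arhgap15, Inpp4b and Limd2 had log2 ratios of -2.26 to -1.63 in members and were lower in blood endothelial and other barcodes too. Acadl, a mitochondrial enzyme of fatty acid oxidation, was at 210.2 and 80.2 CPM (log2 -1.39, -1.99 to -0.81). Its log2 ratio was -0.34 in blood endothelial and -0.57 in other barcodes. Lifr, the receptor of leukaemia inhibitory factor, was at 98.9 and 34.1 CPM (log2 -1.54, -2.48 to -0.65). Blood endothelial Lifr was 62.3 and 64.8 CPM.

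On the higher side, Adamtsl1, a secreted matrix protein, was at 226 and 517 CPM in 39 and 60 barcodes (log2 1.20, 0.82 to 1.59). Blood endothelial barcodes held 11.7 and 12.8 CPM of it. Its log2 ratio was 0.64 (0.21 to 1.09) in Ccl21a-high and 2.20 (1.36 to 3.14) in Ccl21a-low members. Hmcn1 (hemicentin), a long extracellular matrix protein, was at 61.8 and 136 CPM (log2 1.14, 0.40 to 1.94). It was at log2 1.46 (0.42 to 2.67) in Ccl21a-high and 0.54 (-0.62 to 1.77) in Ccl21a-low members. Thsd4, a fibrillin-binding matrix protein, was at 83.5 and 172 CPM (log2 1.05, 0.41 to 1.73). Slc41a1, a magnesium transporter, was at 105 and 293 CPM (log2 1.48, 0.93 to 2.06). Ccdc141 was at 43.3 and 160.3 CPM (log2 1.89, 1.06 to 2.82), and Slc8a1, the sodium-calcium exchanger, at 77.3 and 315 CPM (log2 2.03, 1.41 to 2.70). Plat, the tissue plasminogen activator, was at 34.0 and 156 CPM (log2 2.20, 1.28 to 3.26), against 27.1 and 39.1 CPM in blood endothelial barcodes. Cmah, an enzyme of sialic acid synthesis, was at 105 and 337 CPM in members and at 57.4 and 31.9 CPM in blood endothelial barcodes, where the EC-iCD45KO level was the lower. The blood endothelial log2 ratios were 0.14 for Adamtsl1, 0.08 for Hmcn1, -0.13 for Slc41a1, 0.53 for Plat, 0.87 (0.64 to 1.10) for Thsd4, 0.40 (0.31 to 0.49) for Slc8a1 and 0.51 (0.10 to 0.94) for Ccdc141. In other barcodes the log2 ratio was 1.24 for Thsd4, 0.03 for Adamtsl1, 0.21 for Hmcn1 and -0.38 for Slc41a1. The differences from members were not tested.

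Hjurp, the chaperone that loads the centromeric histone in dividing cells, was at 6.18 and 128 CPM, with 2 UMIs in 2 WT members and 64 UMIs in 43 of 93 EC-iCD45KO members (log2 4.37, 2.46 to 7.45). After thinning it was found in 1.28% and 18.0% of members. Blood endothelial barcodes held 4.47 and 22.9 CPM (log2 2.36, 1.92 to 2.82) and other barcodes 4.96 and 14.2 CPM. Neither of the 2 cell cycle genes that passed the minimum was called in members. Spp1 and Lyz2 were also in this group. Lyz2, a lysozyme of macrophages, was in 33 of 80 and 66 of 93 members at 340.1 and 2201 CPM, and in 61.1% and 80.7% of blood endothelial barcodes at 1194 and 3735 CPM. Spp1 (osteopontin) was at 903 and 3826 CPM, 1227 of its 1909 EC-iCD45KO UMIs in 1 barcode.

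**Figure D5:**
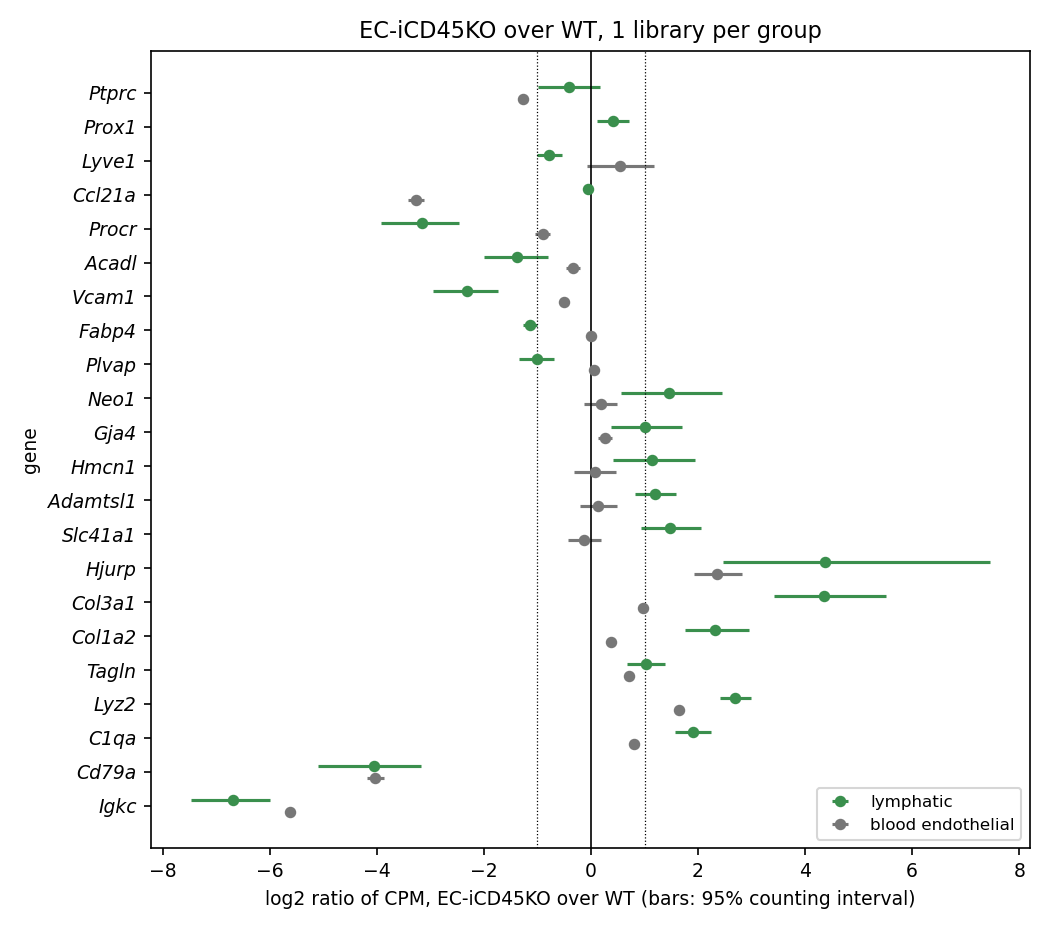
Log2 ratio of CPM in EC-iCD45KO over WT for 22 genes, with 95% counting intervals, in lymphatic (green) and blood endothelial (grey) barcodes, 1 library per group. Dotted lines mark 2-fold. In lymphatic barcodes Ccl21a and Prox1 lie within 2-fold, Procr and Vcam1 lie below -1 and Hjurp, Adamtsl1 and Neo1 above 1.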

How the data were processed

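The 2 deposited matrices, 1 per library, hold UMI counts per gene and barcode from 10x Genomics libraries. The authors made these counts with Cell Ranger 7.1.0 on mm10, per the submitters' processing notes. The aligner, the treatment of intronic reads, the use of strand and any filter on cells beyond the deposited barcodes are not given in the sources used here. Of 39849 WT and 30278 EC-iCD45KO deposited barcodes, 39503 and 28960 passed 300 genes and 10% mitochondrial UMIs, with 91551782 and 87080620 UMIs and medians of 1552 and 1438 per barcode.

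Raw counts were summed over the barcodes of each population and divided by the population's UMIs to give CPM. Ratios carry exact conditional binomial intervals, shares exact Clopper-Pearson intervals, and differences of shares Newcombe intervals, all at 95%. A side at 0 was set to 3 counts and its ratio is a bound. Genes at a mean of at least 50 CPM were counted when past 2-fold with an interval that excluded 0, in both libraries for contrasts within a library. With 1 library per group there were no replicates, so no test across samples and no p-value was computed. Named genes were all members of the lists, the 12 largest and 12 smallest ratios against blood endothelium, the 10 largest rises and falls between libraries, the 15 largest and smallest ratios in the Ccl21a split, and genes picked after their values were seen, as stated beside them. The membership rule and the lists were chosen with earlier results of these data known. The Ccl21a split at 1000 CPM was set after the values were seen.

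Doublets were scored with Scrublet, whose own threshold marked 2 WT and 0 EC-iCD45KO barcodes and so had not worked. No barcode was removed as a doublet, and leaving out the top 10% of scores was an alternative, which held 0 WT and 2 EC-iCD45KO members. Positions come from GENCODE M21 on GRCm38, the assembly also called mm10, which matched 32158 of 32285 gene IDs. The software was scanpy 1.11.5 and matplotlib 3.10.9 with pandas 2.3.3, scipy 1.17.1 and numpy 2.4.6 under Python 3.11.15, and edgeR 4.0.16 under R 4.3.3 for the TMM alternative. The ratio and interval calculations were tested on simulated data. The result of 1 gene is not reported here.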

Additional observations from a re-analysis of the deposited data

Results flagged for a closer look

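For 2 genes the EC-iCD45KO over WT ratio in lymphatic barcodes had the opposite sign to the ratio in blood endothelial barcodes, each past 2-fold, and the difference was not tested. Sele, the E-selectin of inflamed venous endothelium, was at 105 and 24.0 CPM in members (log2 -2.13, -3.21 to -1.14) and at 16.5 and 43.7 CPM in blood endothelial barcodes (log2 1.40). All 34 WT UMIs in members came from 1 barcode and all 12 EC-iCD45KO UMIs from another 1. S100a9, a calgranulin of neutrophils, was at 77.3 and 28.1 CPM in members (log2 -1.46, -2.52 to -0.46) and at 49.7 and 141 CPM in blood endothelial barcodes (log2 1.503). Of its 25 WT UMIs in members, 24 came from 1 barcode.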

How the results depend on the processing

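No paired analysis was possible because there was 1 library for each genotype, and no library could be left out in turn. Of the values that answer a comparison, 128 under the alternatives were counted as staying and 43 as moved. For ratios, shares and counts, staying meant within the counting interval or within 1.5 times the main count. Medians of gene lists have no counting interval and are no counts, so that limit does not describe them. The mesenchymal medians given above with Prox1 required and without barcodes holding markers of another class are not among the 43. Both were well below the main median of 0.77. Of the other values, for named genes, 6323 stayed within the interval, 928 moved and 28 turned sign.

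Without barcodes holding 3 or more markers of another class, the lymphatic share difference was 0.939 points, the Ccl21a-high difference -6.33 points, and 91 genes were higher in EC-iCD45KO, 221 lower in members than in blood endothelium and 12 lower in Ccl21a-high members. There Pltp turned to -2.38, Plin2 to -0.042, Tagln to -1.30 and Npc2 to -0.52 (log2, EC-iCD45KO over WT), and Hbb-bs to 0.15 against blood endothelium. Without barcodes over 1% other-class UMIs, the share difference was 1.04 points, Ptprc -1.72, the mesenchymal median -0.34 and the count lower than blood endothelium 167, with Pltp at -1.12, Mmp3 at -0.33, Tagln at -1.11 and Col1a1 at -0.33. Without the deepest EC-iCD45KO member, Col1a2 was -0.095 and Col1a1 -1.44. With Prox1 required, the identity median was -0.17, Col1a2 -0.15 and Col1a1 -1.61. With 3 lymphatic genes required, the Ccl21a-high difference was -9.82 points, the identity median -0.12, Fabp4 1.53 and the count lower than blood endothelium 157. With 4 endothelial genes required that count was 166 and Tagln -1.20. Among Ccl21a-high members only, 205 genes were lower in EC-iCD45KO, the identity median was -0.12, Fabp4 0.45 and Neo1 -0.013. Among Ccl21a-low members only, Ptprc was -1.44, the identity median 0.38, Col3a1 -1.75, Sele at least 1.83, Pltp -1.17, Ccl19 -1.39, Col1a2 -1.81, Mmp3 -0.17 and Col1a1 -4.69.

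Thinning to 1000 UMIs before the rule chose the members anew, and only 29 WT and 35 EC-iCD45KO members were left. It gave 43 genes higher and 67 lower in EC-iCD45KO, 66 lower than blood endothelium, and 3 higher and 1 lower in Ccl21a-high members. The mesenchymal median was then -0.78, Npc2 -0.27 and Fabp4 in the Ccl21a split 1.14. As a mean of single-barcode CPM, Ptprc was -1.28, Ccl19 -0.10 and Col1a1 -1.003. Counts in this setting used the 2-fold limit alone, with no interval, so they are not like the main counts. They were 171 lower in EC-iCD45KO, 161 lower than blood endothelium and 75 higher and 71 lower in Ccl21a-high members. A minimum of 25 CPM gave 267 higher and 232 lower in EC-iCD45KO and 253 higher and 165 lower against blood endothelium. A minimum of 100 CPM gave 68, 25, 103 and 60, and 26 higher and 19 lower in Ccl21a-high members. No minimum with 0.5 CPM added gave 398, 406, 425 and 232. A higher minimum tests fewer genes and a lower one more, the mean setting has no interval, and thinning before the rule leaves fewer members. The cause of the other changes was not tested.

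Depth limits these results: 80 and 93 members held 323477 and 498974 UMIs, so a gene with no UMI could lie at up to 9.27 and 6.01 CPM, and a UMI of it could be found in up to 3.75% and 3.23% of such barcodes, which limits captured UMIs and not the share of cells that express it. TMM scaling, the stricter barcode filter, the removal of top doublet scores and leaving haemoglobin, mitochondrial and ribosomal protein genes out of the CPM total moved no value that answers a comparison.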

Other observations

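Strong Ccl21a (at least 3 UMIs and 1000 CPM) was not limited to the members. It was found in 38 and 55 members, in 12 and 23 endothelial barcodes with 1 lymphatic gene, and in 257 and 202 barcodes with fewer than 2 endothelial genes, beside the blood endothelial barcodes described above. Of those 257 and 202 barcodes, 61 and 0 held Glycam1, 36 and 54 held Lyve1, 10 and 14 held Prox1, and 152 and 49 held Dcn (decorin, a fibroblast proteoglycan). Lyve1 was in 14.0% and 26.7% of them, against 0.687% and 0.799% of the remaining barcodes of the same kind. Their median depths were 1198 and 1007.5 UMIs. Of the 12 and 23 endothelial barcodes with 1 lymphatic gene, 8 and 10 held Lyve1.

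Several genes of the members were rare in the rest of the aorta. Among the 12 largest ratios, Slc45a3 was at 121 and 110.2 CPM against 1.93 and 1.85 CPM in other barcodes, Pkhd1l1 at 288 and 218 CPM against 1.10 and 0.463 CPM and Gpm6a, a neuronal membrane glycoprotein, at 182 and 204 CPM against 1.73 and 1.36 CPM. Sbspon, which was in the low group of the Ccl21a split, was at 75.7 and 265 CPM in low and 0 and 26.1 CPM in high members, with 1.28 and 2.66 CPM in blood endothelial barcodes. Fibin, a secreted protein, differed between the libraries instead. It was at 18.5 and 176 CPM in 5 and 16 barcodes, with an EC-iCD45KO over WT log2 ratio of 3.25 (2.07 to 4.73), and at 10.4 and 16.7 CPM in blood endothelial barcodes.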
